A study of Mus musculus with 6 samples.

Results

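The genes described here are the Hox cluster genes, taken as every gene of the expression table whose symbol is Hoxa, Hoxb, Hoxc or Hoxd followed by a paralog number. The rule found 34 of the 18051 genes in the table, 10 Hoxa, 10 Hoxb, 8 Hoxc and 6 Hoxd genes, against 39 Hox genes in the RefSeq gene table of the mouse. Hoxa13, Hoxc5, Hoxd1, Hoxd12 and Hoxd13 were not analysed here. RNA-seq was performed on 6 mouse libraries to ask which transcripts differ once S100a8 is disrupted. In 3 libraries (knockout) the cells had received a lentivirus that carries Cas9 and guides against S100a8, a calcium-binding protein of the S100 family, and the other 3 libraries (control) came from cells with the vector control. All 6 are labelled as hematopoietic stem cells. In the study's text, RNA-seq after lentiviral CRISPR of this gene is instead reported for mouse embryonic fibroblasts that had received glycyrrhizic acid, and the labels do not say whether the compound was present, whether the replicates were separate cultures, or whether both groups began from the same cell preparation.

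Hox genes encode transcription factors that bind DNA through a homeodomain and that specify position along the head-to-tail axis of the embryo. They lie in 4 clusters, and the position of a gene in its cluster follows both its paralog number and where along the axis it is first used, so that low numbers mark anterior and high numbers posterior levels. Fibroblasts keep part of the Hox pattern of their site of origin in culture, and in blood-forming cells several Hoxa and Hoxb genes are active in stem and progenitor cells and are shut down as those cells mature.

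The labelled cell type was checked against its markers. Kit, the receptor for stem cell factor, and Ptprc, which encodes CD45 of all leukocytes, were listed at 0 in all 6 libraries, and 11 of 14 blood markers in the table had a mean under 1 FPKM (fragments per kilobase of transcript, relative to all mapped fragments of the library). The exceptions were Cd34, Gata2 and Runx1. Cd34 averaged 32.95 FPKM in knockout and 56.4 FPKM in control, and Gata2 11.3 and 22.7 FPKM, both without overlap. Runx1 averaged 6.64 FPKM in knockout and 6.58 FPKM in control. Of 18 fibroblast and matrix markers, 15 had a mean of at least 10 FPKM. Their summed level was 7629 to 8525 FPKM in knockout and 5930 to 6016 FPKM in control, so these markers themselves differed between the groups, and their part in the Hox values was not tested. Of these markers, 16 were tested with limma at a threshold of 0.05, of which 11 were higher in knockout, 1 was lower and 4 were not called. Over all genes tested, 23.6% were called higher and 26.7% lower. Thy1, among the 11, had 3.78, 4.18 and 3.7 FPKM in knockout and was listed at 0 in every control library. Dcn, a matrix proteoglycan, was the 1 called lower. It averaged 4.73 ± 0.329 FPKM in knockout and 67.2 ± 3.15 FPKM in control (SD, n = 3 each). The targeted gene S100a8 was listed at 0 in every knockout library and had 3.67, 1.61 and 3.95 FPKM in control (exact two-sided permutation test, p = 0.1, the smallest that 3 against 3 libraries can give). Knockout replicate 2 stood apart from the others, with a Pearson correlation across genes of 0.994 and 0.995 with the other knockout libraries, against 0.999 between knockout replicates 1 and 3 and between the control libraries. In these bulk libraries, fewer cells of a type and less RNA per cell cannot be told apart.

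The sequences show how alike the members are where a read can fall. Below is the stretch of 33 coding bases that encodes the recognition helix, the part of the homeodomain that lies in the major groove of DNA, 5′ to 3′ from GENCODE transcripts of the mouse build GRCm38. Shown are Hoxb6, which had the largest difference of the 5 genes tested at a mean of at least 1 FPKM, its paralogs Hoxa6 and Hoxc6, and its Hoxb neighbours, and capitals mark the bases that differ from Hoxb6.
Hoxb6: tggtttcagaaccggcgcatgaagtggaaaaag
Hoxb7: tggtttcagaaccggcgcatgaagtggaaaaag
Hoxa6: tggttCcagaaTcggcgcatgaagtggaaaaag
Hoxc6: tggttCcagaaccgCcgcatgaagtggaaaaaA
Hoxb8: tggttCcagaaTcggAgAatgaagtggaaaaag
Hoxb9: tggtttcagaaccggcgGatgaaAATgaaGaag
Hoxb4: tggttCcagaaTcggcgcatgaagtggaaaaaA
Hoxb3: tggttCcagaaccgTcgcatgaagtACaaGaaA
Hoxb5: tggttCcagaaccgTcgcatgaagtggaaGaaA
Hoxb13: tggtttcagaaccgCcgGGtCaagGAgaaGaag
The stretch was found in 34 of 34 members. Hoxb6 and Hoxb7 are identical over it, Hoxa6 differs from them at 2 bases, Hoxb4 and Hoxc6 at 3, Hoxb8 and Hoxb5 at 4, Hoxb9 at 5, Hoxb3 at 6 and Hoxb13 at 7. The longest run shared by the transcripts of a pair of members was 52 bases for Hoxb4 and Hoxa6, 50 bases for Hoxb9 and Hoxc9, and 37 bases for Hoxb6 and Hoxb7. How fragments that fit more than 1 gene were shared out is not given in the sources used here beyond the use of RSEM, so values of weakly expressed members beside a strong one are uncertain. Hoxb7, for which the helix bases equal those of Hoxb6, had at most 0.16 FPKM in any library.

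Hox expression in these cells was carried mostly by the Hoxb cluster. The Hox genes summed to 19.02, 19.57 and 19.47 FPKM in knockout, against 45.69, 45.42 and 43.77 FPKM in control, which is 2.32 times as much in control. The Hoxb cluster made up 88.6% to 90.3% of that sum in knockout and 90.4% to 91.9% in control. The groups did not overlap in the sum, while the Hoxb share was within a few percentage points in all libraries. Hoxb9, a posterior gene of the thoracic level, was the most abundant member in every library.

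**Figure D1:**
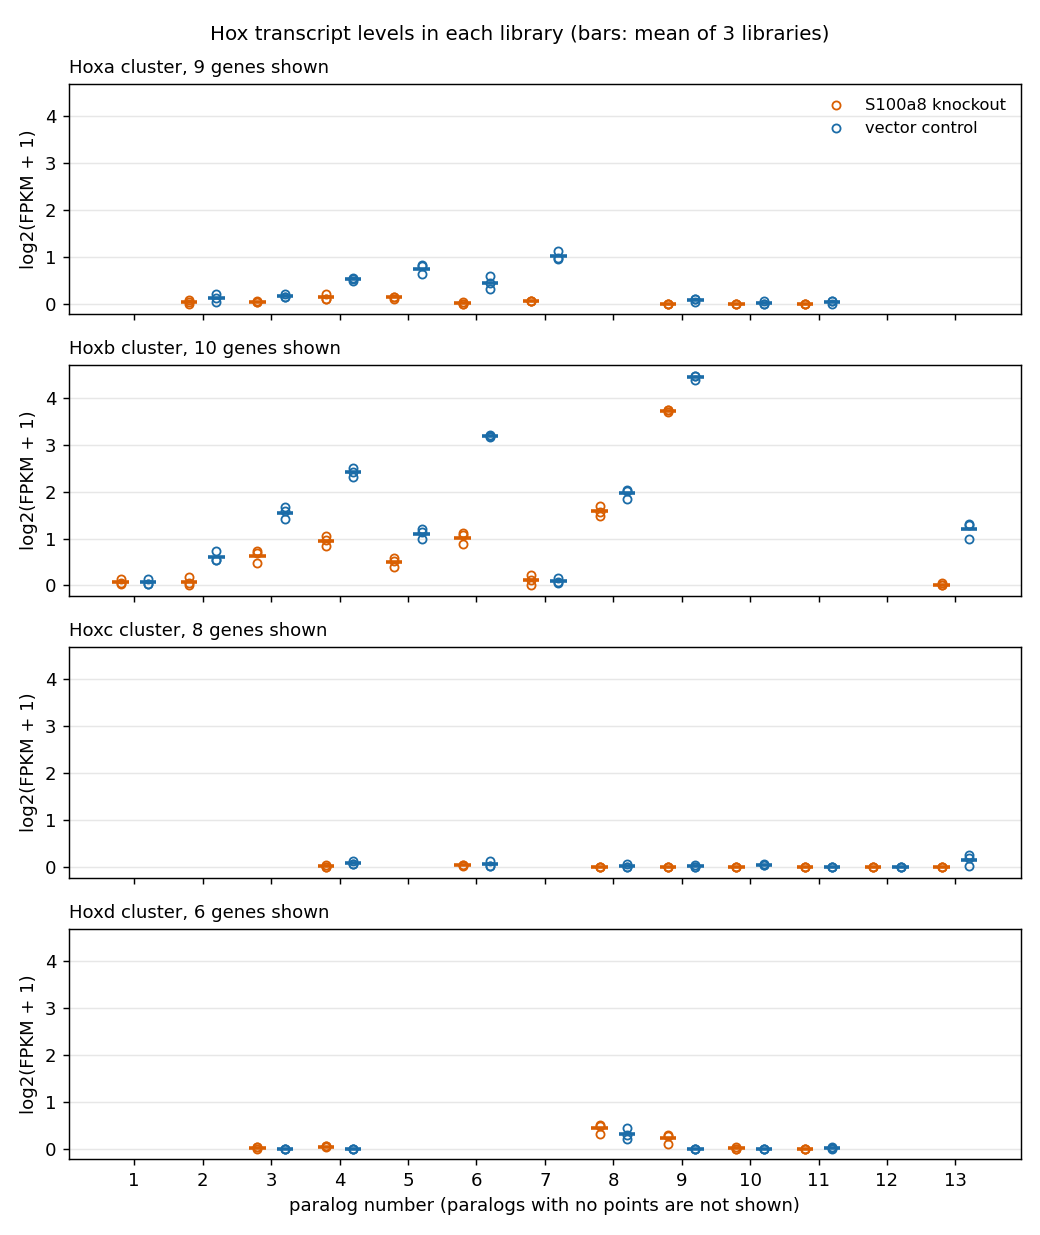
Levels of 33 Hox genes on the log2(FPKM + 1) scale against paralog number, 1 panel per cluster, with S100a8 knockout libraries left of vector control libraries. Circles are libraries and bars are means of 3. Hoxb3 to Hoxb6, Hoxb8, Hoxb9 and Hoxb13 lie lower in knockout, whereas nearly all Hoxc and Hoxd values lie near 0 in both groups.

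Only 5 Hox genes reached a mean of 1 FPKM over the 6 libraries, the level required for the limma test, and all of them belong to the Hoxb cluster. All 5 (Hoxb3, Hoxb4, Hoxb6, Hoxb8 and Hoxb9) fell in knockout, with an adjusted p under 0.05 (limma, Benjamini-Hochberg over 11112 genes). Hoxb3 and Hoxb4 averaged 0.557 and 0.940 FPKM in knockout and met that level only through control, at 1.94 and 4.32 FPKM. For them the direction was thus partly set by the filter. Of all genes tested, 50.2% were called, 26.7% lower and 23.6% higher, and the median difference of all tested genes was -0.02 on the log2 scale. The same 5 were called without knockout replicate 2. A call with a log2 difference of -1 or below, which Hoxb4 and Hoxb6 had, was made for 5.07% of all genes tested.

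Hoxb6, a central member used at trunk levels, showed the largest fall of the 5 on the log2(FPKM + 1) scale. It had 1.16, 1.1 and 0.84 FPKM in knockout, against 7.94, 8.22 and 8.04 FPKM in control. Every knockout library was far below every control library, and the 3 libraries of a group lay close together. The means were 1.03 ± 0.170 FPKM in knockout and 8.07 ± 0.142 FPKM in control (SD, n = 3 each), which is 7.81-fold lower, and the difference was -2.16 on the log2(FPKM + 1) scale (SE 0.082, limma adjusted p = 3.95e-07). Hoxb4, an anterior member best known for expanding hematopoietic stem cells when overexpressed, came next. It had 0.78, 1.07 and 0.97 FPKM in knockout and 4.63, 4.37 and 3.96 FPKM in control, again with no overlap. The means were 0.940 ± 0.147 FPKM in knockout and 4.32 ± 0.338 FPKM in control (SD, n = 3 each), and the log2 difference was -1.46 (SE 0.088, limma adjusted p = 5.59e-06).

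Hoxb3, which patterns the hindbrain and neck region, had 0.39, 0.66 and 0.62 FPKM in knockout and 2.17, 1.65 and 2.01 FPKM in control. The groups did not overlap, and the log2 difference was -0.92 (SE 0.10, limma adjusted p = 0.000199). The abundant Hoxb9 had 12.34, 11.94 and 12.26 FPKM in knockout, against 20.96, 21.14 and 19.72 FPKM in control. Its knockout libraries were the tightest of the 5 genes relative to their level, and all lay below the control libraries. The level was 1.69-fold lower in knockout, with a log2 difference of -0.71 (SE 0.058, limma adjusted p = 3.32e-05). Hoxb8, a trunk gene also used in myeloid progenitors, had the smallest difference of the 5. It had 1.79, 1.95 and 2.24 FPKM in knockout and 2.57, 3.06 and 3.09 FPKM in control, and the highest knockout library stood just under the lowest control library. Its log2 difference was -0.38 (SE 0.091, limma adjusted p = 0.00918).

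The members therefore fell by unequal amounts, and the proportions within the cluster differed between the groups. The ratio of Hoxb9 to Hoxb6 within a library was 10.6, 10.9 and 14.6 in knockout and 2.64, 2.57 and 2.45 in control. Hoxb8 stood above Hoxb6 in each knockout library, with a ratio of 1.54, 1.77 and 2.67, and below it in each control library, with a ratio of 0.324, 0.372 and 0.384. These ratios were picked with the values already in view. Over all Hox genes, the posterior paralogs 9 to 13 held 62.3% to 65.2% of the summed FPKM in knockout and 47.9% to 50.4% in control. The central paralogs 5 to 8 held 20.5% to 21.3% in knockout and 31.2% to 33.5% in control. Hoxb9 makes up nearly all of the posterior sum, so these shares mainly set Hoxb9 against the rest.

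**Figure D2:**
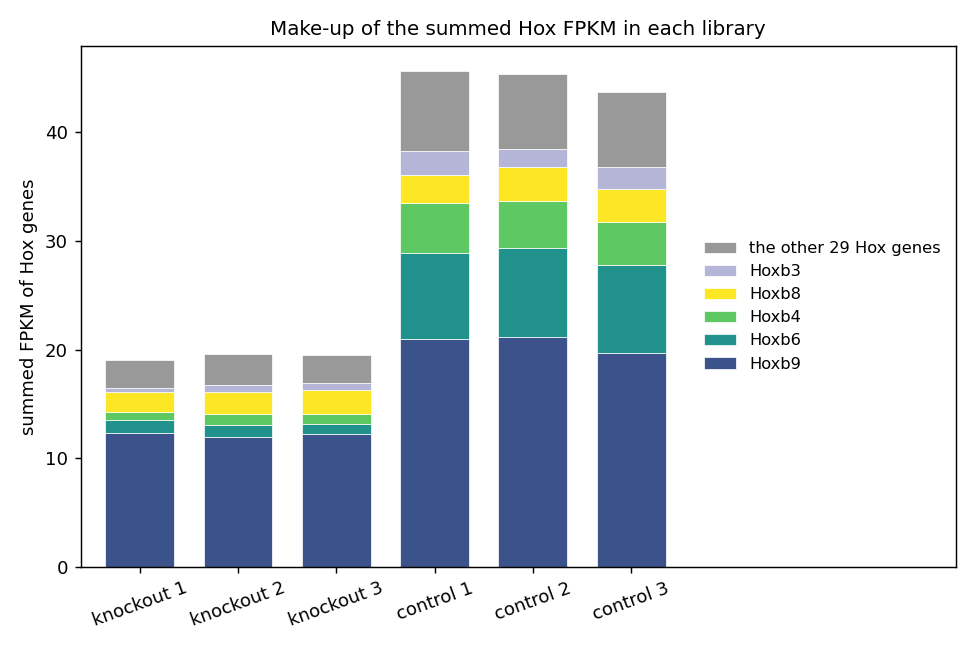
Stacked bars of the summed FPKM of the 34 Hox genes in each library, with the knockout libraries left of the control libraries, split into the 5 most abundant genes and the other 29. The bars reach 19.02 to 19.57 FPKM in knockout and 43.77 to 45.69 FPKM in control, and Hoxb9 is the largest block in each.

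The members of the Hoxb cluster that stayed under a mean of 1 FPKM were examined with 2 further fits that took in more weakly expressed genes, one with a mean of at least 0.3 FPKM (12357 genes, of which 50.2% were called, 26.6% lower and 23.6% higher) and one with every gene above 0 in some library (17453 genes, of which 37.4% were called, 19.7% lower and 17.7% higher). Of the genes under a mean of 1 FPKM, 11.4% were called lower in the second of these. At the edge of the filter, Hoxb3 had a mean of 1.25 FPKM over the 6 libraries and was tested, and Hoxb5 with 0.787 FPKM was not. In the fit of 12357 genes, 10 Hox genes were tested, of which 9 were called lower. Among these, Hoxa5, Hoxa7 and Hoxb13 averaged 0.1, 0.05 and 0.0133 FPKM in knockout and passed the filter only through control. In the fit of 17453 genes, 32 Hox genes were tested, of which 15 were called lower, 2 were called higher (Hoxd9 among them) and 15 were not called. Of the called genes, Hoxa9 and Hoxc10 were at 0 in every knockout library and Hoxd9 in every control library. They entered only through the group where they were higher, so the counts partly follow from the filter.

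Hoxb13, the posterior end of the cluster and a gene of the tail bud and prostate, was at or near 0 in knockout. It had 0, 0.04 and 0 FPKM in knockout and 1.45, 1.48 and 0.99 FPKM in control. The groups were far apart, and the log2 difference was -1.18 (limma adjusted p = 0.000121 in the fit of 17453 genes). Since the added 1 FPKM dampens differences of weak genes, the same gene gave -3.63 with 0.1 added instead, against -2.86 for Hoxb6 and -2.09 for Hoxb4, and the order of the falls therefore depends on the amount added. Hoxb5, a trunk gene, had 0.32, 0.5 and 0.43 FPKM in knockout and 0.98, 1.3 and 1.19 FPKM in control. Its groups did not overlap and the log2 difference was -0.61 (limma adjusted p = 0.00113 in the same fit). Hoxb2, used in the hindbrain, had 0.04, 0 and 0.13 FPKM in knockout and 0.46, 0.45 and 0.66 FPKM in control, and fell by 0.53 on the log2 scale in that fit. Hoxb1 and Hoxb7 had at most 0.16 FPKM and overlapped between the groups. In all, 8 of 10 Hoxb genes were called lower in the fit of 17453 genes and none was called higher, and the 8 included both ends of the run from Hoxb2 to Hoxb13.

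On the chromosome, the Hoxb genes read from the posterior to the anterior end in GRCm38 as Hoxb13 (chr11:96194316-96197447), then Hoxb9 (chr11:96271457-96276595), Hoxb8, Hoxb7, Hoxb6 (chr11:96292476-96301569), Hoxb5, Hoxb4 (chr11:96318267-96321638), Hoxb3, Hoxb2 and Hoxb1, all on the plus strand. A gap of 74010 bp separates Hoxb13 from Hoxb9, whereas the other neighbours lie 1308 to 12146 bp apart. Among the 5 tested genes, on the log2(FPKM + 1) scale, Hoxb6 and Hoxb4 with the larger falls lie inside the cluster, Hoxb8 with the smallest is placed 2 genes from Hoxb6, and the weak Hoxb7 lies between them. With 0.1 added, Hoxb13 at the posterior end had the larger difference. Of the genes listed as flanking the Hoxb cluster, Cbx1, Snx11 and Atp5g1 were tested, at 119 to 420 kb from the cluster, and none was called. Nearer genes were too weak to be tested. Ttll6, 28.1 kb away, had 0.02, 0.01 and 0.03 FPKM in knockout and 0.15, 0.17 and 0.26 FPKM in control, and Skap1, 96.3 kb away, had 0.38, 0.4 and 0.38 FPKM in knockout and 0.1, 0.04 and 0.07 FPKM in control. The groups did not overlap in either gene, Ttll6 being below control and Skap1 above it, while Calcoco2 overlapped. Over chromosome 11 as a whole the median log2 difference of tested genes was -0.02, and the 5 falls were called after genes had been centred on the median of their chromosome.

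Promoters, taken as the 250 bases before the transcription start in the RefSeq table of build GRCm38.p6, were present for 18 of 34 members. Hoxb6 had no entry. Its paralog Hoxa6 is shown with Hoxb4 and Hoxb8, the members among the 5 called genes that had an entry, which were picked with their values in view. Sequences are 5′ to 3′ on the strand of the gene, at chr6:52208673-52208922 (minus strand) for Hoxa6, chr11:96318017-96318266 (plus strand) for Hoxb4 and chr11:96281655-96281904 (plus strand) for Hoxb8.
Hoxa6: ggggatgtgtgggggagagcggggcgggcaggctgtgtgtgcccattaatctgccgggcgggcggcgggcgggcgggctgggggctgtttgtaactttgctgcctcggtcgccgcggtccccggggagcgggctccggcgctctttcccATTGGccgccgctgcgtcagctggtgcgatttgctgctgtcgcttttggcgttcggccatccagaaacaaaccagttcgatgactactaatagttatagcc
Hoxb4: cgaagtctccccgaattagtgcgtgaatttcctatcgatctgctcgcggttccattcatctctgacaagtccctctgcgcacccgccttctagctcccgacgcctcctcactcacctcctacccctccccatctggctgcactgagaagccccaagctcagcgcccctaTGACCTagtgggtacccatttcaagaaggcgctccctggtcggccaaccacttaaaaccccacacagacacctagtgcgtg
Hoxb8: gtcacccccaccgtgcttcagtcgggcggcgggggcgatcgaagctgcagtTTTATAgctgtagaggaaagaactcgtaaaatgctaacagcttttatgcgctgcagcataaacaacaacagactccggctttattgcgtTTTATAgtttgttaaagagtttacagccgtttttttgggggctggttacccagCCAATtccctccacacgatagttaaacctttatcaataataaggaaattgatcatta
Capitals mark matches on either strand to 4 motifs, the TATA box (TATAAA), the CCAAT box (CCAAT), a Hox-Pbx site (TGATTNAT) and the hexamer bound by retinoic acid receptors (AGGTCA), none of which contains another. The Hoxb8 promoter holds the TATA box on the minus strand at 199 to 194 and at 110 to 105 bases before the start and the CCAAT box at 57 to 53. The Hoxb4 promoter holds the receptor hexamer on the minus strand at 81 to 76 bases before the start, and Hoxa6 the CCAAT box on its minus strand at 101 to 97. The TATA box occurs in 12.4% of 32851 promoters of this length and in 3 of 20 Hox promoters, and the CCAAT box in 33.8% and 10 of 20. The Hox-Pbx site occurs in 2.82% and 2 of 20, and the receptor hexamer in 14% and 6 of 20. A match is a description of letters and not a measured site.

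The Hoxa genes described here were weak, with no value above 1.19 FPKM, and the falls centred on the middle of the cluster. Hoxa7, a trunk gene, had 0.05 FPKM in each knockout library and 0.93, 1.19 and 0.97 FPKM in control. Its log2 difference was -0.95 (limma adjusted p = 3.1e-05 in the fit of 17453 genes), and the groups were far apart. Hoxa5, which acts in lung and cervical patterning, had 0.11, 0.11 and 0.08 FPKM in knockout and 0.77, 0.55 and 0.74 FPKM in control. It fell by 0.61 (limma adjusted p = 0.000258). Hoxa6, the paralog of Hoxb6, had 0.02, 0 and 0 FPKM in knockout and 0.5, 0.25 and 0.36 FPKM in control, a fall of 0.44 on the log2 scale in that fit (limma adjusted p = 0.00213). With 0.1 added instead of 1, the differences were -2.91 for Hoxa7, -1.97 for Hoxa5 and -2.11 for Hoxa6, against -2.86 for Hoxb6.

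Summed over the Hoxa cluster, the central genes Hoxa5, Hoxa6 and Hoxa7 reached 0.157 ± 0.0252 FPKM in knockout and 2.09 ± 0.106 FPKM in control (SD, n = 3 each). All 3 had no overlap between the groups. Of the anterior genes, Hoxa4 averaged 0.1 FPKM in knockout and 0.44 FPKM in control, and Hoxa3 averaged 0.0267 FPKM in knockout and 0.123 FPKM in control, both called lower in the fit of 17453 genes. Hoxa2 had at most 0.15 FPKM and overlapped. Of the posterior genes, Hoxa9, a partner of Meis1 in leukemia, was listed at 0 in every knockout library and had 0.08, 0.03 and 0.08 FPKM in control, and Hoxa10 and Hoxa11 had at most 0.05 FPKM. Of 10 Hoxa genes, 6 were called lower in that fit, and the median log2 difference was -0.11, against -0.66 for Hoxb. These medians are on a scale that dampens differences of weak genes, and most Hoxa genes were weak. The summed FPKM of the cluster was 2.45 times as high in control for Hoxa and 2.36 times for Hoxb.

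The Hoxc and Hoxd clusters were close to silent. No Hoxc value passed 0.19 FPKM, and Hoxc11 and Hoxc12 were listed at 0 throughout. Hoxc13, a gene of hair and nail, was listed at 0 in knockout and had 0.19, 0.15 and 0.02 FPKM in control, and did not pass the test (limma adjusted p = 0.0640 in the fit of 17453 genes). Hoxc10, of the lumbar level and hindlimb, was the 1 Hoxc gene called lower, at 0 FPKM in knockout against 0.03, 0.05 and 0.03 FPKM in control, and it was not called without knockout replicate 2 (limma adjusted p = 0.0731). Hoxc4 had at most 0.1 FPKM and did not overlap between the groups but was not called, and Hoxc6, Hoxc8 and Hoxc9 had at most 0.1 FPKM and overlapped. Such values stand for very few fragments, so no order should be read from them.

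Hoxd was the only cluster whose sum was higher in knockout, at 0.55, 0.51 and 0.67 FPKM, against 0.36, 0.15 and 0.25 FPKM in control. Most of it was Hoxd8, a trunk gene, which had 0.42, 0.24 and 0.4 FPKM in knockout and 0.35, 0.15 and 0.22 FPKM in control, with overlap and no call. Hoxd9, a limb and trunk gene, had 0.07, 0.21 and 0.22 FPKM in knockout and was listed at 0 in every control library. It rose by 0.22 on the log2 scale (limma adjusted p = 0.0155 in the fit of 17453 genes). Hoxd4 had 0.04, 0.04 and 0.02 FPKM in knockout and was listed at 0 in control, without passing the test (limma adjusted p = 0.0546). Hoxd3, of which 388 exonic bases are shared with Hoxd4 in the annotation, had at most 0.02 FPKM, and Hoxd10 and Hoxd11 at most 0.03 FPKM. Over the 34 members, 17 lay lower and 3 higher in knockout with no overlap between the groups, where 25.4% and 23.1% of the 17453 genes above 0 did so.

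**Figure D3:**
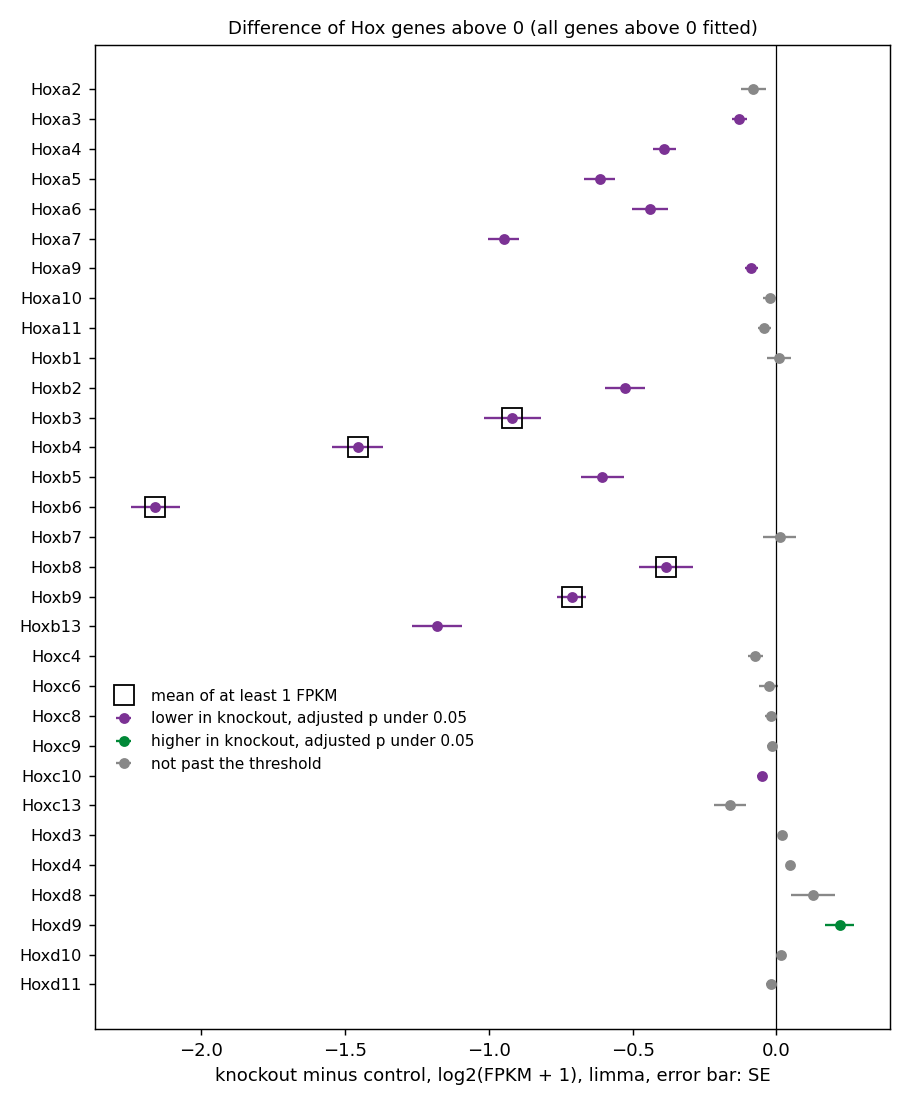
Difference between knockout and control for 31 Hox genes above 0, on the log2(FPKM + 1) scale with its SE from the limma fit of 17453 genes, ordered by cluster and paralog number. Squares mark the 5 genes with a mean of at least 1 FPKM. Hoxb6 lies farthest left at -2.16, and Hoxd9 lies right of 0 at 0.22.

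The precision of these values rests on few fragments for most members. In genes with a single annotated transcript, the product of FPKM and transcript length was most often between 0.04 and 0.06 at low values in every library. If that step is 1 fragment, each library held about 20000000 fragments, and the values of Hoxb9 stand for roughly 615 to 635 fragments in knockout and 1015 to 1088 in control. On the same reckoning Hoxb6 had 33 to 46 fragments in knockout and 312 to 323 in control, and Hoxd9 had 3 to 9 in knockout and 0 in control. These are rough figures from the longest coding transcript and entered no test. They show that Hoxb9 was measured with far more fragments than the rest.

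Hox proteins bind DNA together with TALE homeodomain cofactors of the Pbx, Meis and Pknox families. The list of 11 TALE genes also held Tgif1 and Tgif2, which lie outside these families. All 11 were tested, of which 2 rose, 2 fell and 7 were not called. The median log2 difference was -0.023, against -0.015 for all tested genes, of which 26.7% were called lower and 23.6% higher. Meis1 rose to 3.17 ± 0.356 FPKM in knockout, against 1.59 ± 0.0889 FPKM in control (SD, n = 3 each), a log2 difference of 0.69 (limma adjusted p = 0.000327). Tgif1, a TALE repressor, rose by 0.33. Pknox2 fell to 2.34 ± 0.363 FPKM in knockout, against 5.85 ± 0.517 FPKM in control (SD, n = 3 each), a log2 difference of -1.04 (limma adjusted p = 8.4e-05). Meis3 fell by 0.23, with a limma adjusted p of 0.0489, and the difference was 0.0067 after each chromosome had been centred.

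Chromatin and signalling genes that set Hox expression were taken as a list of 36, of which 27 were tested. Of these, 2 rose, 8 fell and 17 were not called, and the median log2 difference was 0.02. Over all tested genes, 26.7% were called lower, 23.6% higher and 50.2% in either direction. The largest falls were those of Kdm6a, an X-linked H3K27 demethylase, by 0.60 and of Psip1, a tether of the MLL complex, by 0.59. With each chromosome centred, Kdm6a had a difference of -0.26 and was not called (limma adjusted p = 0.168), whereas Psip1 was called under every alternative. The rises were of the Polycomb genes Pcgf2 by 0.23 and Bmi1 by 0.20. Bmi1 lost its call with any library but knockout replicate 2 left out and under TPM scaling (limma adjusted p = 0.160), and Pcgf2 with any control library left out (highest limma adjusted p = 0.0859). Kmt2a, the MLL methyltransferase that maintains Hox transcription, averaged 7.22 ± 2.22 FPKM in knockout and 6.90 ± 0.736 FPKM in control (SD, n = 3 each), with overlap. The number of regulators called was 17 without knockout replicate 2, 5 without control replicate 1 or 3 and 6 without control replicate 2. Of the 24 genes in the table that flank the 4 clusters, 18 were tested. Among the 18, 2 rose, 4 fell and 12 were not called, with a median of -0.10, beside the same shares of all tested genes. Cbx5, the heterochromatin protein gene 155 kb from the Hoxc cluster, fell by 0.86 and was called under every alternative. Hnrnpa3, 911 kb from the Hoxd cluster, fell by 0.31. Skap2 and Tax1bp1, 143 and 468 kb from the Hoxa cluster, rose by 0.20 and 0.18. With each chromosome centred these 3 were not called, at -0.13 for Hnrnpa3, 0.090 for Skap2 and 0.069 for Tax1bp1 (limma adjusted p = 0.166, 0.269 and 0.340). The count for the flanking genes was 9 without knockout replicate 2 and 2 or 3 without knockout replicate 3 or any 1 control library.

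Retinoic acid induces anterior Hox genes in the embryo. Of 18 genes that bind, make, break down or sense it, 9 were tested. Among the 9, 3 rose, 5 fell and 1 was not called, with a median log2 difference of -0.26. Over all tested genes, 26.7% were called lower and 23.6% higher. Crabp1, a cytosolic binding protein, had 883, 1331 and 981 FPKM in knockout and 70.7, 66.8 and 74.2 FPKM in control, a rise of 3.88, and Dhrs3, a retinal reductase, rose by 1.86. The receptor gene Rara fell by 0.74.

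Transcription factors outside the Hox clusters that mark position in face, limb and trunk mesenchyme differed between the groups in both directions. Of 47 in the table, 30 were tested, 16 rose, 9 fell and 5 were not called, with a median log2 difference of 0.32. All tested genes had a median of -0.015, with 26.7% called lower and 23.6% higher. Msx2, which patterns the skull and face, had 6.88, 7.31 and 6.66 FPKM in knockout and 1.15, 1.44 and 1.24 FPKM in control. Its groups did not overlap, and it rose by 1.81 on the log2 scale (limma adjusted p = 8.17e-07). Pax9, a gene of the pharyngeal pouches and sclerotome, had 0.97, 1.14 and 0.99 FPKM in knockout and 8.73, 7.42 and 8.43 FPKM in control. It fell by 2.17 without overlap (limma adjusted p = 3.95e-07).

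**Figure D4:**
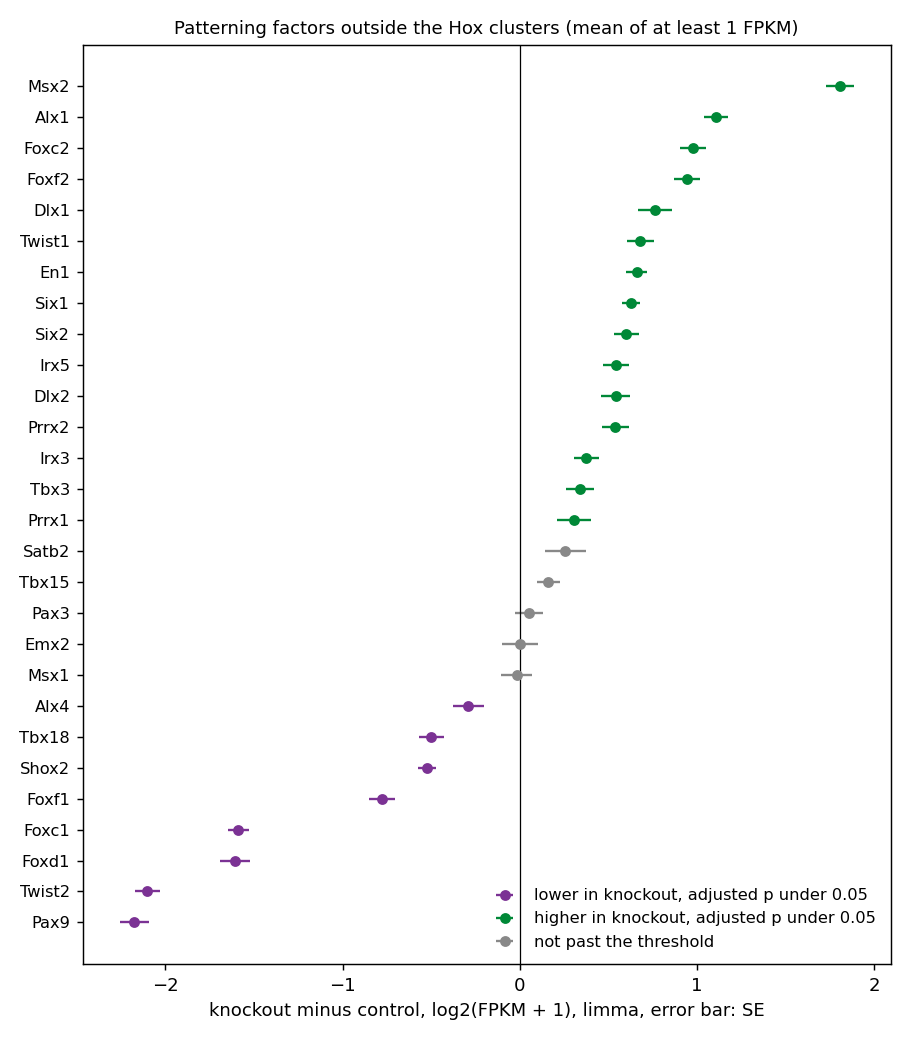
Difference between knockout and control for 28 tested patterning factors outside the Hox clusters, on the log2(FPKM + 1) scale with its SE from limma, ordered by size. Msx2 lies farthest right at 1.81 and Pax9 farthest left at -2.17, and of the genes drawn 15 were called higher and 8 lower in knockout.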

How the data were processed

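Total RNA was extracted with TRIZOL and sequenced on a DNBSEQ platform. The authors removed adapter and low-quality reads. Per the submitters' processing notes, Bowtie2 2.2.5 and HISAT2 2.0.4 were run with the mm10 genome, and the study's methods name RSEM. The deposited values were FPKM, given by the authors to 2 decimals. The gene annotation and use of strand are not given in the sources used here. Columns holding the authors' group means (2) were not used.

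Groups came from the treatment labels. Genes with a mean of at least 1 FPKM over the 6 libraries (11112 of 18051, 598 at 0 throughout) were tested on log2(FPKM + 1), a scale that understates changes of weak genes, with limma 3.58.1 in R 4.3.3 (mean-variance trend, no covariate), Benjamini-Hochberg adjustment and a threshold of 0.05. The procedure was checked on simulated data. Exact permutation tests used scipy 1.17.1 in Python 3.11.15. The labels name no separate cultures, so p-values cover only how much these libraries vary, which may be technical variation. The library sums were 467255 to 538504 FPKM, and 15392 to 15563 genes were above 0. Sequencing depth was not stated.

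The members and gene lists were chosen with earlier results of these data known. Hox genes were named with values per library for members called with a log2 difference of at least 1 in size and for untested members without overlap that reached 0.5 FPKM. Hoxb3, Hoxb8, Hoxb9, Hoxa9, Hoxc10, Hoxc13, Hoxd4, Hoxd8 and Hoxd9 were also given per library, outside this rule. The remaining members were given by their mean or range. From each list, up to 2 of the largest called rises and falls were named, and some items are not reported here. Cd34, Gata2, Runx1, Thy1, Dcn, Kmt2a, Cbx1, Snx11, Atp5g1, Ttll6, Skap1 and Calcoco2 were named outside this rule, after their values had been seen. None of the 18 non-coding transcripts listed for the clusters was analysed here. Alternatives were pseudocounts of 0.1 and 0.5, a minimum mean of 0.3 or 5 FPKM, no filter, TPM scaling (to a common sum), quantile normalization, scaling by the median of ratios, no trend, each library left out, the replicate number as a block, and centring of each chromosome.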

Additional observations from a re-analysis of the deposited data

How the results depend on the processing

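The 5 tested Hox genes stayed lower and past the threshold in all 91 values from the alternatives that could test them, and the highest adjusted p was that of Hoxb8 (limma, 0.00397 to 0.0440 over its alternatives). The count of called Hox genes followed the filter on low values, being 10 with a mean of at least 0.3 FPKM, 17 without a filter and 1 with at least 5 FPKM, which only Hoxb9 reaches. In 2 settings chosen after seeing the data, it was 19 without a filter and with a pseudocount of 0.1, where Hoxc13 and Hoxd4 were added, and 16 without a filter and without knockout replicate 2. Hox genes too low to be tested numbered 29, and 2 without a filter. Leaving out each library gave 5 in every case. The count of all genes past the threshold was 5580, and 4283 to 7391 with a library left out.

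Of the other lists, 1 TALE gene was called with at least 5 FPKM, against 4. Hox regulators numbered 10, with a range of 5 to 17 when a library was left out and 17 without a filter and without knockout replicate 2. Flanking genes numbered 6, and 3 under TPM scaling, 2 with chromosomes centred, 2 to 9 with a library left out and 10 without a filter and without knockout replicate 2. With chromosomes centred, Meis3 changed sign to 0.0067 and Men1 to 0.019 (limma adjusted p = 0.957 and 0.841). Of 996 values for 53 called list genes, 99 lost the threshold and 2 changed sign. Apart from what the filter and the construction of the settings account for, the cause was not tested.

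The replicate numbers gave a correlation of deviations across genes of 0.33, 0.10 and -0.21 for the 3 numbers, and not every library matched its own number best, so they were not taken to pair the libraries. A fit with the replicate number as a block called 5 Hox genes, and the count of all genes past the threshold was 5527. Most Hox genes outside Hoxb lay under 1 FPKM, where few fragments limit what can be detected.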
